A study of Mus musculus with 6 samples.

Results

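The myosin heavy and light chains are the actin-based motor proteins and the small subunits that bind their necks, described here with the kinases that phosphorylate the light chains. Their genes were taken by symbol, as every measured gene whose name begins with Myo, Myh or Myl and a number, or with Mylk. This gave 53 of the 19938 genes measured. The mice are described by the series title as YAP-S127A Villin-rtTA, and the labels divide them into 3 YAP Tg and 3 Control mice. YAP is a coactivator of transcription, and in YAP-S127A a serine that the Hippo kinases phosphorylate to inhibit it is replaced. The Villin promoter is active in intestinal epithelium, and rtTA is a transcriptional activator that works in the presence of doxycycline, so the design switches the transgene on in epithelial cells. Doxycycline was given for 2 days, which the series states for the mice without naming groups. It is not said for the Control mice apart whether they received it, which transgenes they carried, or how old the mice were. Crypts, the epithelial pits between the villi, were released with EDTA, were not cultured, and gave 1 Affymetrix array per sample. The samples were taken as separate mice, which the titles state for the controls only, so the p-values below measure the spread between these samples.

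Class I myosins are single-headed motors whose tails bind membrane directly, and in the gut they tie the microvillus membrane to its actin core. Conventional, or class II, myosins form filaments from paired heavy chains. Each of their necks carries an essential and a regulatory light chain, and phosphorylation of the regulatory chain by myosin light chain kinase lets them pull on actin. YAP acts on DNA through TEAD factors, which bind the core motif CATTCC, while many genes of actin and smooth muscle are controlled by serum response factor through the CArG box.

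Values are log2 signals, so a difference of 1 is a 2-fold difference in signal. Signals of different genes come from different probes, so their levels do not rank the genes by RNA amount. The median over the 19938 genes was 6.74 to 6.79 on every array. The median of 6617 probe sets taken to be array controls lay at 4.97 to 4.99 in Control mice and at 5.33, 5.15 and 5.03 in YAP Tg mice 1, 2 and 3. Across genes, Pearson's r was 0.996 to 0.997 among Control arrays and 0.978 to 0.989 among YAP Tg arrays; genes are not independent replicates. Of the epithelial markers that define the labelled tissue, 7 of 7 were measured, and they read between 11.10 and 13.69, above the median of the array controls. With 3 mice per group the number of arrays limits the precision, and an exact permutation test of a single gene could not go below p = 0.1.

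Promoter sequences were available for 47 of the 53 genes in RefSeq's GRCm38.p6 tables, as 59 windows of 300 bases that run from 250 before to 50 after the transcription start. The 4 printed here show genes that rose beside genes that did not pass the test, each with the TEAD or the serum response factor motif. Each line gives the 250 bases before the start, from 5′ to 3′ on the gene's strand, with the motif in capitals. Myo1e is at chr9:70207100-70207349 (plus strand, CArG box from 32 to 23 bases before the start). Myo9b is at chr8:71272464-71272713 (plus strand, CATTCC on the opposite strand, from 114 to 109 bases before the start). Myl9 is at chr2:156775214-156775463 (plus strand, CArG box from 161 to 152 bases before the start). Myl7 is at chr11:5898783-5899032 (minus strand, CATTCC from 70 to 65 and a CArG box from 61 to 52 bases before the start).
Myo1e: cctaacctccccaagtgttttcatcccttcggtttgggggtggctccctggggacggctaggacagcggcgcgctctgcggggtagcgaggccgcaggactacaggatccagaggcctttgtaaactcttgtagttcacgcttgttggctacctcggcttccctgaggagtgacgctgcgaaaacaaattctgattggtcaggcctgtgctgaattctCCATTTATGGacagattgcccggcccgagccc
Myo9b: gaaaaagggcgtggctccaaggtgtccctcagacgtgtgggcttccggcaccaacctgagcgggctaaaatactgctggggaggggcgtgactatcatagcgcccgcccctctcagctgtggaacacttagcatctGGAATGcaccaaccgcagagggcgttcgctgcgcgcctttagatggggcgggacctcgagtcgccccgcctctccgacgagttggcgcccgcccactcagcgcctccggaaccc
Myl9: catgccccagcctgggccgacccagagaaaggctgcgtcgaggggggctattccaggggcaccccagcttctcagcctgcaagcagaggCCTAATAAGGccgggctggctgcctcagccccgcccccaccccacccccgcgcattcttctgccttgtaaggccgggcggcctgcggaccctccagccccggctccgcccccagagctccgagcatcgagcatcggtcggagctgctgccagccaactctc
Myl7: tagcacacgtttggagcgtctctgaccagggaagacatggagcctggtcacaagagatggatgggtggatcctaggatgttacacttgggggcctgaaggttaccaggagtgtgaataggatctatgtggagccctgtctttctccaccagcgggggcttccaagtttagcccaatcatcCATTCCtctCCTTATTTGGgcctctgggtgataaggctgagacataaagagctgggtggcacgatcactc

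On either strand, CATTCC stood in 14.7% of all 32851 RefSeq windows and in 16 of the 59 myosin windows (27.1%). Of the 18 windows of genes that rose, 2 held it, those of Myl12a and Myo9b. It stood in 14 of the 40 windows of genes that did not pass the test and in 5 of 11 windows of striated muscle heavy chains. The CArG box stood in 1.63% of all windows and in 7 of the 59 myosin windows (11.9%). Those 7 belong to Myo1e and Myl6, which rose, and to Myh4, Myh13, Myl3, Myl7 and Myl9, which did not pass the test. A match is a stretch of letters and was not tested for binding. The 2 motifs do not overlap in the Myl7 promoter shown.

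The question was how the motor genes of the crypt stood after 2 days of activated YAP. In the YAP Tg crypts 16 of the 53 genes were higher and 1, Myo5c, was lower (limma, adjusted p below 0.05), while 36 did not pass. The 16 are 30.2% of the myosin genes, against 7.50% of all genes tested that were higher. The 1 that fell is 1.89%, against 6.70% of all genes that were lower. The median log2 difference was 0.17 for the myosin genes and 0.03 for all genes. All 3 YAP Tg values lay above all 3 Control values for 21 of the 53 (39.6%), against 16.5% of all genes, and below them for 2, against 17.0% of all genes. Called genes were spread unevenly over the classes. They were 4 of 7 class I myosins, 8 of 17 other unconventional myosins, 2 of 3 non-muscle heavy chains and 3 of 5 non-muscle and smooth muscle light chains. The adjusted test by limma called neither the smooth muscle heavy chain nor any of 10 striated muscle heavy chains. It also called none of 6 striated muscle light chains and 4 light chain kinases. At an unadjusted p below 0.05 by limma, 3 striated muscle light chains and 1 kinase were higher and no gene of these classes was lower. The share of all genes past the unadjusted threshold was not counted, here or below. It cannot be under the 7.50% higher and 6.70% lower of the adjusted test. Unadjusted counts alone therefore do not set a list apart from all genes. A crypt preparation is bulk tissue, so more cells of a type and more RNA per cell cannot be told apart.

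**Figure D1:**
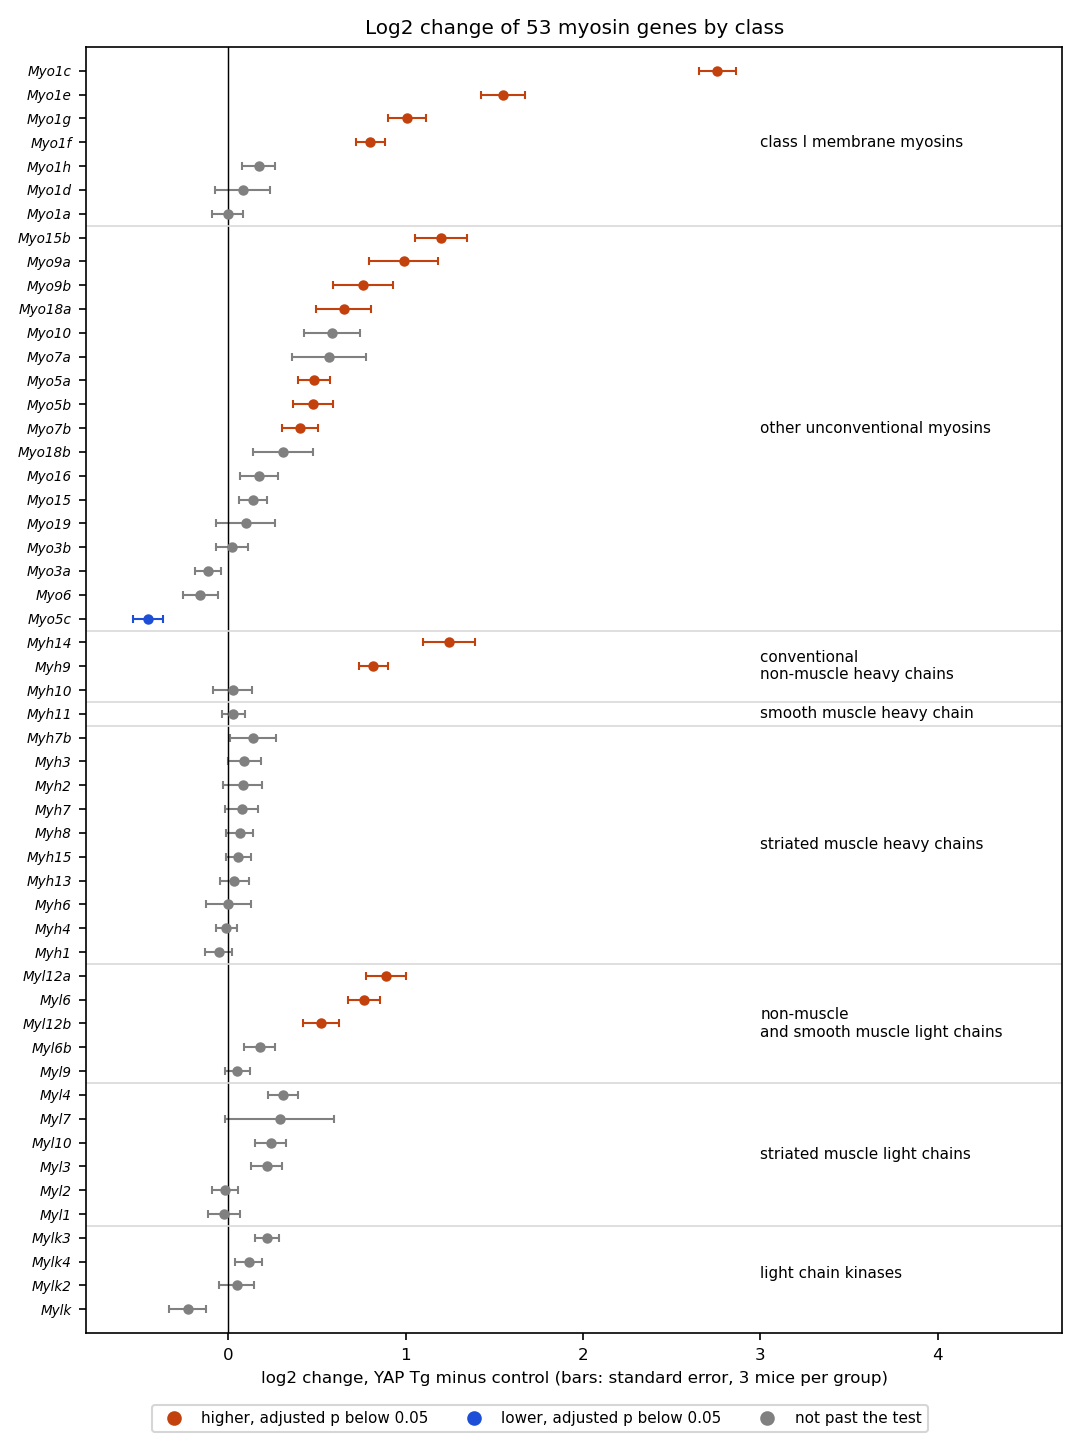
Log2 difference, YAP Tg minus Control, of the 53 myosin genes by class (points, with the standard error from limma, 3 mice per group); red marks genes higher and blue genes lower at an adjusted p below 0.05. Class I reaches 2.76 at Myo1c, while the 10 striated muscle heavy chains lie between -0.06 and 0.14.

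Class I myosins split into 4 genes that rose and 3 that did not pass, and the class median was 0.80. Myo1c (probe set 10378697), a short-tailed myosin that links vesicles and the plasma membrane to actin, had the highest of all the myosin differences. Its signals were 8.37, 8.51 and 8.15 in Control mice and 11.13, 11.03 and 11.15 in YAP Tg mice. The groups lay far apart and the YAP Tg mice were close together. The difference was 2.76 (SE 0.11, limma's adjusted p = 0.000274), or 6.76-fold. Myo1e (probe set 10586781), a long-tailed myosin of endocytic sites, read 9.08, 9.05 and 8.91 in Control and 10.79, 10.38 and 10.51 in YAP Tg mice. All YAP Tg mice were again above all controls, and the difference was 1.55 (SE 0.12, limma's adjusted p = 0.00124). The promoter of Myo1e is the one printed above with a CArG box beside the start.

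Myo1g, with a short tail, and Myo1f, with a long one, are known mainly from white blood cells, and both rose. Myo1g read 6.97, 6.79 and 6.85 in Control and 7.89, 8.04 and 7.70 in YAP Tg mice, a difference of 1.01 (SE 0.11, limma's adjusted p = 0.00308). Myo1f read 6.70, 6.62 and 6.66 in Control and 7.34, 7.48 and 7.56 in YAP Tg mice, a difference of 0.80 (SE 0.08, limma's adjusted p = 0.00264). Both sets of 3 YAP Tg values stood clear of the controls. Many markers of white blood cells, but not all, were also higher in the YAP Tg group. T cells and intraepithelial lymphocytes had 11 measured markers, with a median difference of 1.36. By limma's test 10 were higher (90.9%, against 7.50% of all genes) and 0 lower. All 11 had every YAP Tg value above every Control value, against 16.5% of all genes. On the linear scale their summed signal was 13527 to 16446 in Control and 34183 to 39682 in YAP Tg mice. Ptprc, which encodes the pan-leukocyte protein CD45, read 8.46, 8.42 and 8.43 in Control and 9.78, 9.70 and 9.79 in YAP Tg mice. At an unadjusted p below 0.05 the count was 11 higher and 0 lower. No marker of this list was below the median of the array controls on all arrays. Of 9 myeloid markers, 4 were higher (Csf1r, Tyrobp, Fcer1g and Cd68) and 1 was lower (Itgam). These are 44.4% and 11.1%, against 7.50% and 6.70% of all genes. The median was 0.61, with sums of 1843 to 2740 in Control and 3088 to 4389 in YAP Tg mice. The 4 became 2 without Control mouse 2 or 3 or YAP Tg mouse 1, and Itgam was not called without Control mouse 1 or 2 or YAP Tg mouse 1 or 3. The part of these cells in the rise of Myo1f and Myo1g was not tested.

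**Figure D2:**
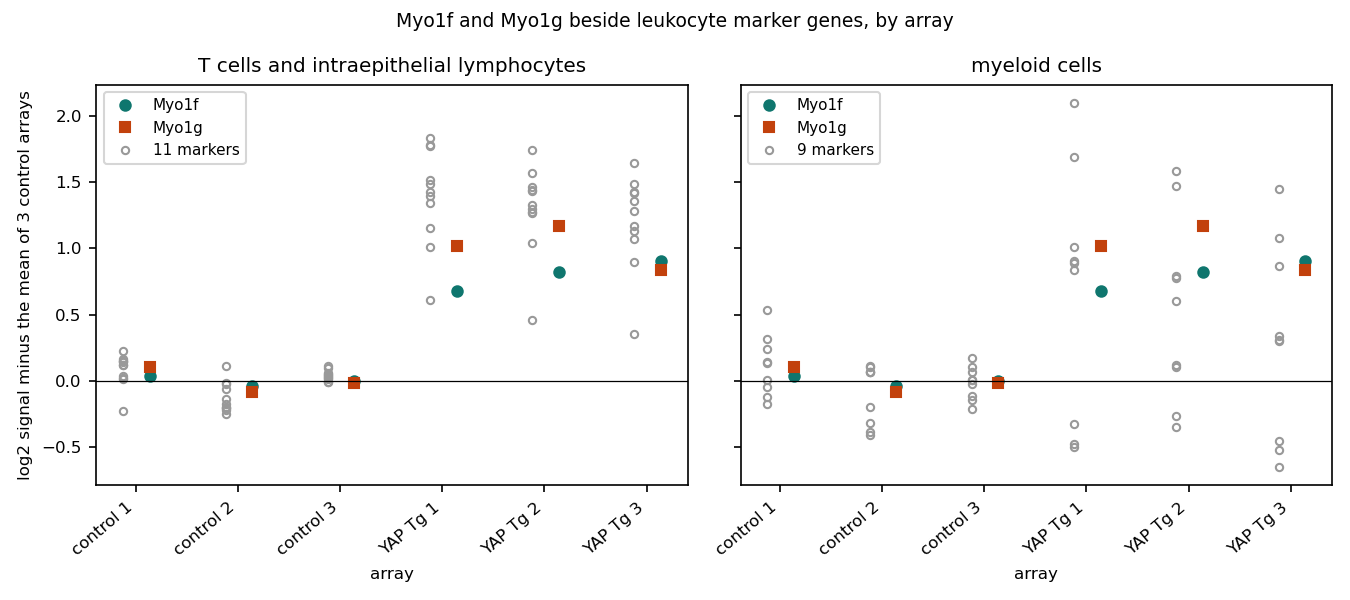
Myo1f (green circles) and Myo1g (red squares) beside 11 markers of T cells and intraepithelial lymphocytes (left) and 9 myeloid markers (right, open grey circles), as log2 signal minus the mean of the 3 Control arrays, by array. In the left panel every symbol on the YAP Tg arrays lies above 0, and in the right panel the markers lie on both sides of it.

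The brush border class I myosins did not pass the test. Myo1a, the main class I myosin of the microvillus, read 11.81, 11.68 and 11.65 in Control and 11.65, 11.65 and 11.83 in YAP Tg mice. These values overlap, and the 95% interval of the difference ran from -0.21 to 0.20 (limma's adjusted p = 0.981). Myo1d, which also sits in the brush border, read 11.74, 11.65 and 11.40 in Control and 11.39, 11.83 and 11.83 in YAP Tg mice. The lowest of its 6 values was that of YAP Tg mouse 1, and the interval was -0.29 to 0.46 (limma's adjusted p = 0.754). Its further probe set gave -0.05 (limma's adjusted p = 0.895). Myo1h differed by 0.17 (limma's adjusted p = 0.266).

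Of 17 other unconventional myosins 7 rose and 1 fell, with a median of 0.40. Myo15b had the highest difference of the class, with 10.88, 10.76 and 10.69 in Control and 12.28, 11.75 and 11.91 in YAP Tg mice. The difference was 1.20 (SE 0.15, limma's adjusted p = 0.00469), and YAP Tg mouse 1 was the highest of the 3. Myo9a and Myo9b, both class IX myosins, rose together. Myo9a read 7.43, 7.47 and 7.00 in Control and 8.51, 8.41 and 7.94 in YAP Tg mice, a difference of 0.99 (SE 0.19, limma's adjusted p = 0.0223). Myo9b, whose promoter above holds CATTCC, read 7.71, 7.48 and 7.48 in Control and 8.68, 8.16 and 8.12 in YAP Tg mice, a difference of 0.76 (SE 0.17, limma's adjusted p = 0.0325). In both genes the third mouse of each group was low or level with the lowest, while the groups stayed apart. Myo18a, a myosin that links the Golgi to actin, read 8.40, 8.43 and 8.26 in Control and 9.31, 8.70 and 9.03 in YAP Tg mice (difference 0.65, SE 0.16, limma's adjusted p = 0.0429).

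Class V, VI and VII myosins carry vesicles and shape the microvillus. Myo5b, the motor of apical recycling endosomes that is mutated in microvillus inclusion disease, read 10.58, 10.48 and 10.28 in Control and 11.01, 10.77 and 10.99 in YAP Tg mice. The difference was 0.48 (SE 0.11, limma's adjusted p = 0.0394). Myo7b, which holds the adhesion complex between microvillus tips, read 10.55, 10.47 and 10.32 in Control and 10.90, 10.69 and 10.96 in YAP Tg mice. Its difference was 0.40 (SE 0.10, limma's adjusted p = 0.0498), at the edge of the threshold. YAP Tg mouse 2 was the lowest of the 3 for both genes, and no YAP Tg value fell among the controls. Myo6, which walks toward the base of the microvillus, read 10.64, 10.45 and 10.31 in Control and 10.26, 10.33 and 10.35 in YAP Tg mice. Its groups overlap, and the interval was -0.40 to 0.08 (limma's adjusted p = 0.337).

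Myo5a and Myo5c differed in opposite directions. Myo5a, the carrier of melanosomes and other vesicles, read 5.65, 5.71 and 5.74 in Control and 6.31, 6.05 and 6.19 in YAP Tg mice, a difference of 0.48 (SE 0.09, limma's adjusted p = 0.0183). Myo5c, a class V myosin of secretory epithelia, read 8.29, 8.41 and 8.27 in Control and 7.77, 7.96 and 7.88 in YAP Tg mice. Each of its YAP Tg values lay below each Control value, and the difference was -0.45 (SE 0.08, limma's adjusted p = 0.0183). The genes are near neighbours, with only Gm16353 between them in RefSeq's order. Among class members that did not pass, Myo10, the motor of filopodia, had groups that do not overlap, with 8.11, 8.13 and 7.85 in Control and 8.78, 8.77 and 8.30 in YAP Tg mice (difference 0.59, limma's adjusted p = 0.0587). Myo10 passed the test without YAP Tg mouse 3, with the replicate block, under quantile normalization and among genes filtered on signal. Myo7a (0.57) did not overlap either (limma's adjusted p = 0.131) and passed under quantile normalization. Myo18b (0.31), Myo16 (0.17), Myo15 (0.14), Myo19 (0.10), Myo3b (0.02) and Myo3a (-0.12) had adjusted p-values from 0.280 to 0.901 by limma, and of these Myo18b passed without YAP Tg mouse 2.

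Of these 8 called genes 7 lost the call when single mice were left out, all but Myo15b. Without Control mouse 1, 2 or 3 the class had 1 gene higher and none lower. Without YAP Tg mouse 1 or 3 it had 3 higher, and without YAP Tg mouse 2 it had 8.

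**Figure D3:**
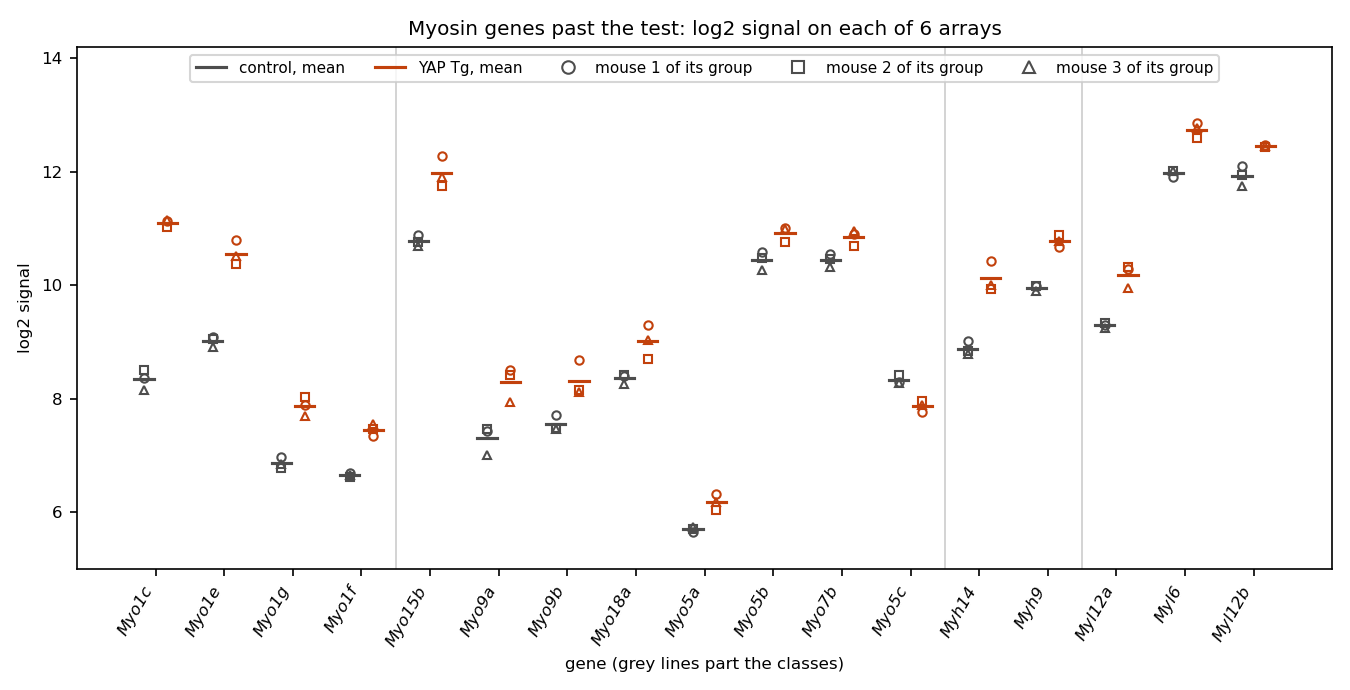
Log2 signal in each of the 6 mice for the 17 myosin genes past the test, Control and YAP Tg, with group means. The groups overlap for none of the 17 genes, and Myo5c is the single gene with the YAP Tg mice below the Control mice.

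Of the 3 non-muscle heavy chains 2 rose. Myh14 (probe set 10562856), the heavy chain of non-muscle myosin IIC, read 9.01, 8.84 and 8.79 in Control and 10.43, 9.94 and 10.01 in YAP Tg mice. The difference was 1.25 (SE 0.15, limma's adjusted p = 0.00413), or 2.37-fold. Myh9 (probe set 10430201), the heavy chain of non-muscle myosin IIA, read 9.99, 9.99 and 9.90 in Control and 10.67, 10.88 and 10.79 in YAP Tg mice. The spread in each group was small beside the difference of 0.82 (SE 0.08, limma's adjusted p = 0.00239). A second, dimmer probe set of Myh9 gave 0.61 (limma's adjusted p = 0.0998). Myh10, the heavy chain of non-muscle myosin IIB, read 5.43, 5.71 and 5.73 in Control and 5.52, 5.71 and 5.71 in YAP Tg mice. Its groups overlap fully, with an interval of -0.24 to 0.29 (limma's adjusted p = 0.897).

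Of the 5 light chains that serve non-muscle and smooth muscle myosin 3 rose. Myl6 (probe set 10354372), the essential light chain of non-muscle and smooth muscle myosin, read 11.90, 12.01 and 12.01 in Control and 12.85, 12.60 and 12.77 in YAP Tg mice. The difference was 0.77 (SE 0.09, limma's adjusted p = 0.00409). It has 6 probe sets with this symbol, and all 6 were higher, by 0.77 to 0.85. Probes of near-identical copies of Myl6 may read the same RNA, so they are not 6 measurements. Myl12a, a non-muscle regulatory light chain, read 9.30, 9.34 and 9.25 in Control and 10.28, 10.32 and 9.95 in YAP Tg mice, a difference of 0.89 (SE 0.11, limma's adjusted p = 0.00557). Myl12b, its near-identical neighbour on the chromosome, read 12.10, 11.95 and 11.75 in Control and 12.47, 12.44 and 12.45 in YAP Tg mice, a difference of 0.52 (SE 0.10, limma's adjusted p = 0.0214). The groups of both genes stood apart, but an array may read one gene's RNA in part through the other's probes, so how the rise divides between them is uncertain. The call of Myl12b was lost without Control mouse 2 or 3 or YAP Tg mouse 1 or 3.

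Myl9, the regulatory light chain of smooth muscle, read 5.55, 5.42 and 5.53 in Control and 5.55 in each YAP Tg mouse. The interval was -0.11 to 0.22 (limma's adjusted p = 0.648); its promoter is printed above with a CArG box. The value was the same on 4 of the 6 arrays, to 5 decimals. Such repeats, on at least 3 arrays, were found in 6 of the 53 myosin genes (11.3%) and in 12.0% of all genes, and they leave a probe set with little measured spread. Myl6b read 5.61, 5.65 and 5.86 in Control and 5.86, 5.89 and 5.91 in YAP Tg mice (difference 0.18, limma's adjusted p = 0.230).

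The muscle forms gave no called difference. Myh11, the smooth muscle heavy chain, read 5.89, 5.92 and 5.88 in Control and 5.98, 5.89 and 5.91 in YAP Tg mice, with an interval of -0.13 to 0.18 (limma's adjusted p = 0.797). Of 9 smooth muscle markers, among them Acta2 and Tagln, none was called (median 0.08; 1 was higher at an unadjusted p below 0.05 by limma), and their summed linear signal was 733 to 779 in both groups. The 10 striated muscle heavy chains lay between 4.49 and 6.87 over all arrays and differed by -0.06 to 0.14. Myh7b (0.14), Myh7 (0.08) and Myh6 (interval -0.31 to 0.31) had overlapping groups. Of 10 striated muscle markers, none was called (1 was higher at an unadjusted p below 0.05 by limma, median 0.15, sums of 852 to 997 in Control and 979 to 1333 in YAP Tg mice). On all 6 arrays Myh1, Myh3 and Myh15 were below the median of the array controls, as were Myl1, Myo3a and Mylk4, so these probe sets say little about their genes. Others read little above that median, such as Myh2 (means of 5.43 in Control and 5.51 in YAP Tg mice) and Myh4 (5.38 and 5.37). At such low signal, the lack of a call does not show that a gene was unchanged.

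Among striated muscle light chains Myl7, the atrial regulatory chain, varied widely. It read 7.60, 7.24 and 7.05 in Control and 8.14, 7.65 and 6.97 in YAP Tg mice. The highest and the lowest of these 6 values were both from YAP Tg mice, and the interval was -0.45 to 1.03 (limma's adjusted p = 0.566). Its promoter above holds both motifs. Myl4, the atrial essential chain, read 5.85, 5.77 and 5.90 in Control and 6.27, 6.05 and 6.12 in YAP Tg mice, apart but not past the test (difference 0.31, limma's adjusted p = 0.0652). Myl3, the ventricular essential chain, differed by 0.22 (limma's adjusted p = 0.161), and Myl10 by 0.24 (limma's adjusted p = 0.132) with groups that do not overlap. Without YAP Tg mouse 2, Myl4 passed the test.

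Mylk, the kinase of the smooth and non-muscle regulatory light chains, had a lower mean in YAP Tg crypts. It read 8.35, 8.11 and 8.32 in Control and 7.90, 8.07 and 8.14 in YAP Tg mice. YAP Tg mouse 3 lay above Control mouse 2, and the difference of -0.23 did not pass (interval -0.48 to 0.02, limma's adjusted p = 0.194). Mylk3, known from heart, read 5.53, 5.55 and 5.57 in Control and 5.74, 5.72 and 5.85 in YAP Tg mice (difference 0.22, limma's adjusted p = 0.0931), and passed without YAP Tg mouse 2. Mylk2, known from skeletal muscle, differed by 0.05 (limma's adjusted p = 0.784).

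Of the 53 genes 5 had several probe sets. Myo9a has 13, and all 13 differences were positive, from 0.22 to 1.31, with 5 past the test over all 21789 probe sets. All 13 had a mean signal below 8, and the lowest mean was 3.03, below the median of the array controls. They read 1 gene on the same arrays, so they are not 13 measurements. With the mean of the 13 the call of Myo9a was lost. Myo18b has 20, none past the test, with differences from -0.16 to 0.31. Of these 20, 2 had a mean signal above 9 and 18 lay below 8.

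**Figure D4:**
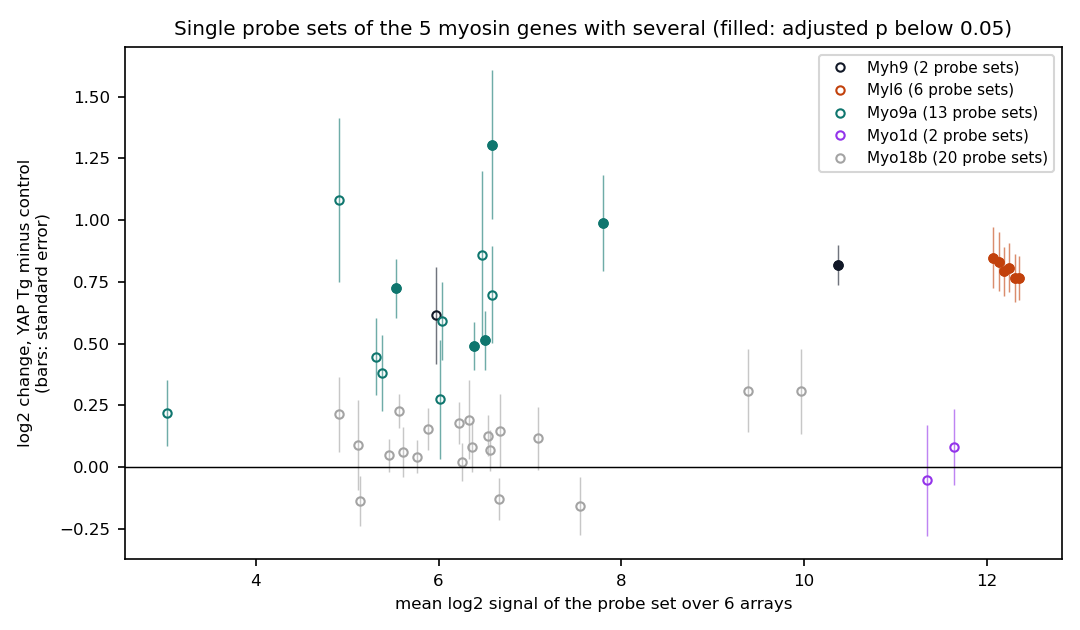
Mean log2 signal over 6 arrays (horizontal) against the log2 difference, YAP Tg minus Control (vertical, with standard error), for each probe set of the 5 myosin genes that have several; filled points passed limma's test. The 6 Myl6 points cluster between 0.77 and 0.85, while those of Myo9a spread from 0.22 to 1.31.

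The genes that regulate and carry myosin moved in part. In the list of light chain phosphorylation 5 of 22 measured genes were higher and none lower by limma (median 0.27). They were Calm2 (0.89), which encodes calmodulin, the activator of myosin light chain kinase, the phosphatase's targeting subunit Ppp1r12a (0.95) and its inhibitor Ppp1r14d (1.09), and the Cdc42-binding kinase Cdc42bpb (0.57). Cdc42bpg (0.29), the fifth, was chosen after its value was seen. At an unadjusted p below 0.05, 12 were higher and 1 lower. The count was 1 without Control mouse 1 or 2, 2 without Control mouse 3 or YAP Tg mouse 3, and 12 without YAP Tg mouse 2, where 2 were lower.

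Of 19 actin, tropomyosin and crosslinker genes 5 were higher (26.3%, against 7.50% of all genes) and 1 lower (5.26%, near the 6.70% of all genes). The median was 0.24. The crosslinkers Actn4 (0.72) and Flna (1.07) and the calponin Cnn2 (1.51) rose, and its relative Cnn3 fell (-0.98). Also higher were the tropomyosins Tpm4 (0.41) and Tpm1 (0.35), named after their values were seen. Without any single Control mouse 2 were higher and none lower. Without YAP Tg mouse 2 there were 8 and 2, where 14.1% of all genes were higher and 19.5% lower. Cnn3 was not called without YAP Tg mouse 3 either. Of 14 microvillus genes, 8 were higher and 0 lower at an unadjusted p below 0.05 by limma, with a median of 0.26. After adjustment 4 were higher (28.6%, against 7.50% of all genes) and none lower (against 6.70%). These were the capping proteins Eps8l2 (0.98) and Eps8 (0.77), ezrin (Ezr, 0.59), which ties membrane to actin, and the protocadherin Cdhr2 (0.61), a partner of Myo7b. Cdhr2 lost its call without any single Control mouse or YAP Tg mouse 1 or 3. Without YAP Tg mouse 2, 9 microvillus genes were higher, where 14.1% of all genes were. By contrast, of 11 enterocyte markers 4 were lower (36.4%, against 6.70% of all genes) and none higher (against 7.50%) by limma. Their median was -0.73, and 7 were lower and 1 higher at an unadjusted p below 0.05 by limma. The 4 became 2 without Control mouse 1 or 2, 1 without Control mouse 3, and 6 without YAP Tg mouse 3.

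Of 18 chaperones, adaptors and cargo Rabs 3 were higher (16.7%, against 7.50% of all genes) and 1 lower (5.56%, near the 6.70% of all genes), with a median of 0.10. Dab2, an endocytic adaptor that binds Myo6, rose from 5.42 ± 0.11 to 7.48 ± 0.11 (SD, n = 3), a difference of 2.06, which was 1.06 with the mean of its probe sets. Unc45a (0.97), the chaperone that folds myosin heads in non-muscle cells, and Rab11a (0.61), the recycling GTPase that Myo5b binds, rose, and Dynll2 (-0.39), a light chain that myosin V shares with dynein, fell. The calls of Rab11a and Dynll2 were lost without any single Control mouse or YAP Tg mouse 3, and that of Dynll2 without YAP Tg mouse 1. A list of serum response factor, its cofactors (Mrtfa, Mrtfb and Myocd) and genes they control had 13 measured genes. Their median was 0.24, and 6 were higher (46.2%, against 7.50% of all genes) and 1 lower (7.69%, near the 6.70% of all genes). Not called were Srf (-0.02), Mrtfb (-0.67), Mrtfa (0.24), Myocd (0.06), Tagln (0.20) and Tgfb1i1 (0.11), with differences given after their values were seen. Ccn1 (4.49), Ccn2 (1.65), Fos (1.38) and Egr1 (1.51) rose, of which Ccn1 and Ccn2 are also known YAP targets. Also called were Fhl2 (1.31), Vcl (0.57) and Fhl1 (-0.60), named after their values were seen. All 3 lost the call without any single Control mouse or YAP Tg mouse 3, and Fhl1 and Fhl2 also without YAP Tg mouse 1, so the 6 became 4 at the lowest.

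The myosin counts moved with the mice used. Without Control mouse 1, 2 or 3 there were 10, 9 and 9 myosin genes higher, where 3.38%, 3.70% and 3.36% of all genes were. Without YAP Tg mouse 1, 2 or 3 there were 11, 19 and 11, where 5.72%, 14.1% and 5.36% of all genes were. Myo5c was called lower without YAP Tg mouse 1 or 2 and in no other of these settings. In 9 genes the call held in all 16 alternatives tried, and these were Myo1c, Myo1e, Myo1f, Myo1g, Myo15b, Myh9, Myh14, Myl6 and Myl12a. Among the 16 genes that rose, YAP Tg mouse 1 had the highest of the 3 values in 10 and YAP Tg mouse 2 the lowest in 10.

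**Figure D5:**
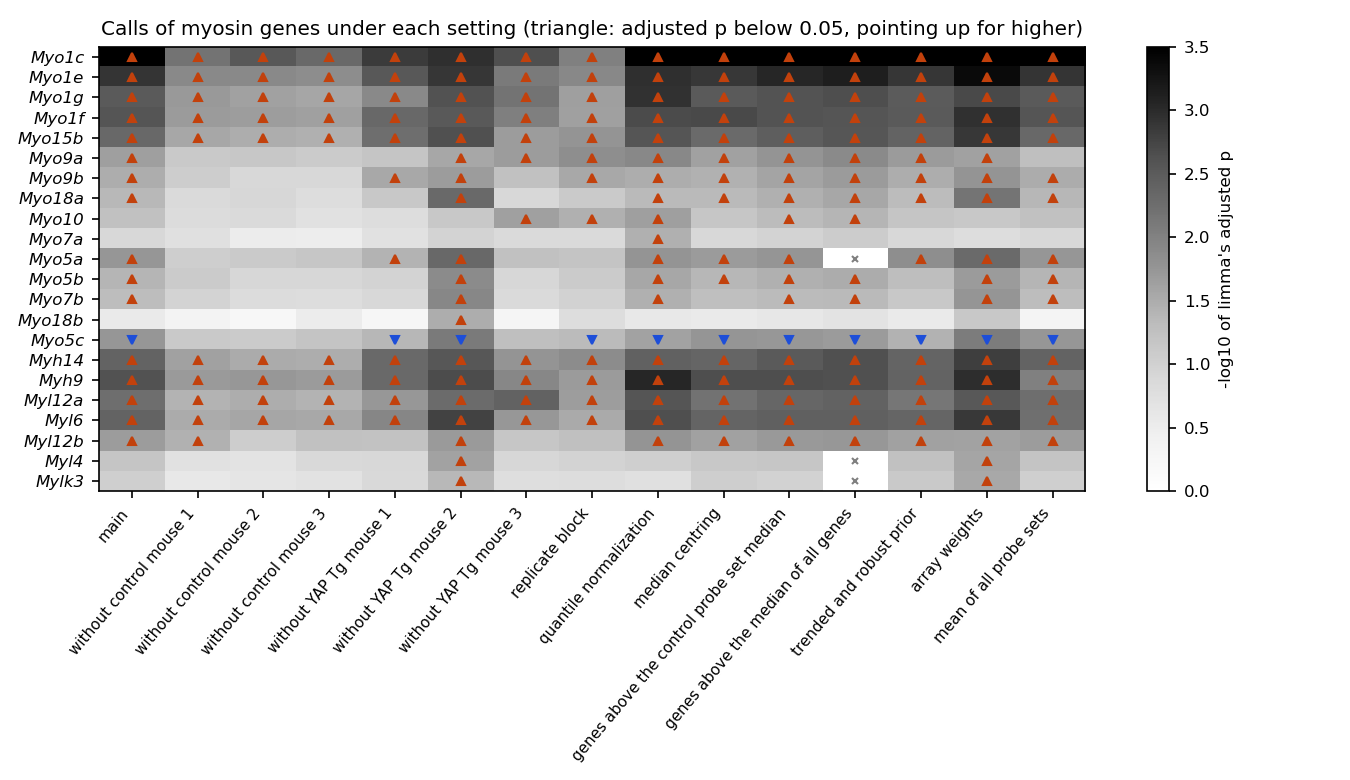
Which myosin genes were called higher or lower in YAP Tg crypts under each setting (columns), for each gene called in at least 1 of them (rows); shading is -log10 of limma's adjusted p, an upward triangle marks a call higher, a downward one a call lower, and a cross a gene left out by a filter. The 9 genes named above have a triangle in every column, while the other called rows lack one under at least 1 setting.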

How the data were processed

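Total RNA of crypts from 6 mice was biotin-labelled and hybridised, per the labels' protocols. The authors deposited log2 signals of 35556 probe sets for each array. The software was Affymetrix Expression Console 1.1, per the submitters' processing notes. No normalization or probe summary is named in those sources, the log2 scale was read from the values (1.99 to 14.4), and a change common to all genes would be hidden by scaling arrays to a common level. Of the probe sets, 21789 had 1 symbol in the platform annotation; 1621 with several and 5529 not listed were left out, as were 6617 taken, from their numbers, to be array controls. Each of 19938 genes was represented by its probe set of highest mean over the 6 arrays.

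Differences are YAP Tg minus Control, tested with lmFit and eBayes of limma 3.58.1 under R 4.3.3 (two-sided, no covariate), Benjamini-Hochberg adjusted over all genes at 0.05. The script was tested on simulated data. Standard errors and 95% intervals are limma's. Named were all myosin genes past the test, up to 3 others per class by signal, a fixed set of myosins, and up to 4 called genes per pathway list by smallest p; Myo3a, Myo3b, Myo7a, Myo10, Myo15, Myo16, Myl1, Myl10, Mylk4, Myh1, Myh3, Myh15, Krt18 and Vim were added after their values were seen. The members and lists were chosen with earlier results of these data known. Promoters came from RefSeq (GRCm38.p6), whose build may differ from that of the array. Alternatives left out each mouse, or changed normalization, signal filters, prior, array weights, probe set summary, threshold or replicate block, and, added after seeing the data, took each probe set of a gene on its own.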

Additional observations from a re-analysis of the deposited data

How the results depend on the processing

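No myosin gene turned its direction while called in any of the 16 alternatives. Over 53 genes and these settings the side of the threshold was the same 748 times, a call was lost 52 times and gained 14 times. With 1 mouse left out, 9 to 19 myosin genes were higher and 0 to 1 lower. At an adjusted p below 0.01 there were 9 higher and 0 lower (3.32% and 1.94% of all genes). The labels do not say whether the replicate numbers pair the samples. Deviations of same-numbered mice correlated at -0.13, 0.01 and 0.10, within the range found for differently numbered mice. With so few arrays these correlations cannot decide whether the samples were paired. With the replicate number as a block there were 12 higher and 1 lower (4.89% and 3.65% of all genes). Quantile normalization gave 18 higher (8.22% of all genes), median centring 15 (7.29%), and genes above the median of all genes 16 of 25 measured there, where 13.5% of all genes were higher. Array weights, which gave YAP Tg mouse 2 a weight of 0.249, called 18 higher, where 12.3% of all genes were, against 7.50% with equal weights. Scalings moved the median of all genes by under 0.1. The highest adjusted p over these settings was 0.131 for Myo9b, 0.157 for Myo18a, 0.162 for Myo7b, 0.124 for Myo5b, 0.0897 for Myo5a, 0.0814 for Myo9a, 0.0808 for Myo5c and 0.0879 for Myl12b, by limma. Signal near that of the array controls limits at least 6 genes, which read below it on all arrays. Others read little above the medians of the array controls (4.97 to 5.33). Among them were Myl9 (means of 5.50 in Control and 5.55 in YAP Tg mice) and Myh10 (5.62 and 5.65).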

Other observations

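Other cell types of the preparation are described by their marker lists alone, as counts past limma's test. That test called 7.50% of all genes higher and 6.70% lower. The shares lower were 75% for Lgr5 stem cell, 33.3% for goblet, 50% for Paneth and 28.6% for enteroendocrine markers. The shares higher were 57.1% for epithelial, 14.3% for enteroendocrine and 12.5% for fibroblast markers. The last 2 shares rest on 1 gene each, too few to set them apart from all genes. Of 8 markers of Lgr5 stem cells 6 were lower and none higher, also at an unadjusted p below 0.05 (median -1.42), and the 6 became 2 or 3 when single Control mice were left out. Of 6 goblet cell markers 2 were lower (1 without Control mouse 3), and of 6 Paneth cell markers 3 were lower, which became 1 without Control mouse 1 or 3 or YAP Tg mouse 3. Of 7 enteroendocrine markers 1 was higher, a call kept only without YAP Tg mouse 2 among single mice left out, and 2 were lower (1 without Control mouse 1 or 3 or YAP Tg mouse 1 or 3). By limma none of 6 tuft cell markers passed, also at an unadjusted p below 0.05. None of 9 cell cycle genes passed (2 were lower at an unadjusted p below 0.05), while 8 were lower without YAP Tg mouse 2, a setting that raised the share of all genes called lower from 6.70% to 19.5%. Of 7 epithelial markers 4 were higher, led by the keratin Krt18 (1.53). Leaving out Control mouse 2 or YAP Tg mouse 1 left 2, and leaving out Control mouse 1 or 3 or YAP Tg mouse 3 left 1. Of 8 fibroblast markers 1, Vim (0.95), was higher; it was not called without any single Control mouse or YAP Tg mouse 1, and white blood cells also express it. None of 6 endothelial, 6 B and plasma cell, and 5 enteric glia and neuron markers passed; at an unadjusted p below 0.05, 1 of each was higher and 1 B and plasma cell marker was lower. Whether any of these cells contributed to the myosin signals was not tested.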
